A study of Mus musculus with 18 samples.

Results

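The genes of the unfolded protein response and of protein folding in the endoplasmic reticulum (ER) are described here in C2C12 myotubes exposed to palmitic acid (PA) after silencing of Erk3 or Mk5. The list holds 39 genes, chosen by symbol for their known roles, out of 55414 genes in the count table. The choice was made with earlier results of these data known. All 39 matched an Ensembl identifier, and all had at least 10 counts over the 18 libraries, so that they belong to the 21772 genes tested. They comprise 8 stress sensors and transcription factors, 10 chaperones of the Hsp70 and Hsp90 type with their partners, 2 lectin chaperones, 7 disulfide isomerases and oxidases, 11 genes of ER-associated degradation and 1 subunit of the translocation channel.

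C2C12 is an established mouse myoblast line that fuses into myotubes in low-serum medium. Cells received non-targeting siRNA (siNtc, spelled siNTC in the labels), a pool of siRNAs to Erk3 (siErk3) or a pool to Mk5 (siMk5). After 6 days of differentiation the myotubes were treated for 16 h, without serum, with 0.5 mM PA conjugated to BSA or with BSA alone. All groups therefore share transfection, serum withdrawal and BSA, and each of the 6 combinations of siRNA and medium has 3 libraries. All come from a single cell line, and the labels do not say whether the replicates were cultured separately, so that p-values measure only the spread between these libraries, which may be technical. Libraries hold 13041979 to 28496727 assigned read pairs, with siNtc BSA library 1 the smallest.

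The ER folds secreted and membrane proteins with chaperones, lectins and disulfide isomerases, and hands misfolded ones to the proteasome by ER-associated degradation. When unfolded protein accumulates, 3 sensors in the ER membrane respond. IRE1α (gene Ern1) cuts Xbp1 mRNA, which gives an active transcription factor, ATF6 is cut in the Golgi by the proteases encoded by Mbtps1 and Mbtps2, and PERK (gene Eif2ak3) slows translation while ATF4 and CHOP (gene Ddit3) are made. ATF6 and XBP1 act on promoters through the ER stress response element (ERSE), a CCAAT box and a CCACG box 9 bases apart, and through the related ERSE-II, ATTGG and CCACG 1 base apart. Saturated fatty acids such as palmitate are known to set off this response in muscle and other cells.

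RefSeq promoters, from 250 bases before to 50 bases after the start site, were matched by symbol for 35 of the 39 genes, all but Derl1, Manf, Atf6 and Hyou1. On either strand, an ERSE was found in 10 of these 35 promoters (28.6%) and in 37 of 27025 genes over the genome (0.137%), and an ERSE-II in 2 (5.71%) against 12 genes (0.044%). Hsp90b1 was the single gene with 2 copies of the ERSE in these windows. The following elements are shown because they span the roles of the list, from BiP to the degradation complex, and let the shared boxes be compared. The 2 boxes are in capitals, and sequences run in the direction of the element. Coordinates are those of GRCm38.p6 and, like the sequences, include 5 flanking bases on each side. The distance leaves these flanks out and is from the end of the element nearer the start site.
Hspa5, chr2:34772020-34772048, plus strand, 47 bases before the start: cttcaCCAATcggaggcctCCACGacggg
Hsp90b1, chr10:86705633-86705661, minus strand, 194 bases before the start: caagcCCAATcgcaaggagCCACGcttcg
Hsp90b1, chr10:86705528-86705556, plus strand, 89 bases before the start: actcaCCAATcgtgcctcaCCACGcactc
Creld2, chr15:88819515-88819543, minus strand, 108 bases before the start: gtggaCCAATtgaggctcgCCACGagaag
Calr, chr8:84847070-84847098, plus strand, 144 bases before the start: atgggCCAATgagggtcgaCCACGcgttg
Pdia6, chr12:17266486-17266514, plus strand, 80 bases before the start: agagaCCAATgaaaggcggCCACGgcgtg
Dnajc3, chr14:118937822-118937850, plus strand, 87 bases before the start: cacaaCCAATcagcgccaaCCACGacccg
Syvn1, chr19:6046527-6046555, plus strand, 26 bases before the start: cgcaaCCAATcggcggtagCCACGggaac
Herpud1, chr8:94386372-94386392, plus strand, 42 bases before the start: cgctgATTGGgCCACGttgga
Dnajb11, chr16:22857847-22857867, plus strand, 7 bases after the start: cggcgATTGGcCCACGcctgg
Of these, the elements of Herpud1 and Dnajb11 are of the ERSE-II form, and that of Dnajb11 lies within the transcribed sequence, whereas the others lie before the start site. Canx, Ero1b and Derl3 hold an ERSE as well. The bare CCACG, which is part of both elements and of the UPRE, occurred in 27 of 35 promoters (77.1%) against 35.5% of all genes, and the UPRE, TGACGTGG, in 0 of 35 against 0.714%. A match describes the letters in this window and is no measurement of binding.

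The targeted genes were checked before the comparisons. Mapk6, which encodes Erk3, stood at 135, 129 and 133 CPM (counts scaled to the TMM-normalized library size) in the siNtc BSA libraries and at 56.6, 60.3 and 55.2 CPM in siErk3 BSA. With PA it was at 215, 236 and 244 CPM in siNtc and 131, 119 and 109 CPM in siErk3. The groups did not overlap in either medium, and the log2 fold changes of siErk3 against siNtc were -1.205 ± 0.06 (SE) with BSA and -0.95 ± 0.06 with PA. Mapkapk5, which encodes Mk5, was near the limit of detection, at 2.53, 2.54 and 2.32 CPM in siNtc BSA and 1.18, 2.01 and 1.702 CPM in siMk5 BSA, and at 2.52, 3.92 and 3.28 CPM in siNtc PA and 2.43, 2.33 and 2.17 CPM in siMk5 PA. Every siMk5 library was below every siNtc library of the same medium. However, the log2 fold changes, -0.61 ± 0.21 and -0.48 ± 0.18, did not pass the test (FDR 0.469 and 0.469, edgeR quasi-likelihood test with Benjamini-Hochberg adjustment). These are mRNA levels, and the study states that silencing of both targets was verified separately by Western blot.

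PA raised most of the list in every silencing group. A gene was called changed with an FDR (Benjamini-Hochberg adjusted p of edgeR's quasi-likelihood test over all 21772 genes) below 0.05 and a fold change above 1.3, 3 libraries against 3. In siNtc 33 of 39 genes rose and 0 fell, where 15.5% of all genes rose and 15.1% fell. In siErk3 33 rose and 0 fell, against 15.8% and 16.3% of all genes, and in siMk5 34 rose and 1 fell, against 15.1% and 14.6%. The median log2 fold change of the 39 genes was 1.46 in siNtc, 1.496 in siErk3 and 1.43 in siMk5, and that of all genes tested was -0.03, -0.01 and -0.01. In bulk RNA, a change in the mix of cells and a change of RNA per cell cannot be told apart. For 36 of 39 genes in each silencing group, all 3 PA libraries were above all 3 BSA libraries, as they were for 26.9% of all genes tested in siNtc, 27.5% in siErk3 and 27.3% in siMk5. Taken as a share of all assigned read pairs, the 39 genes rose from 0.771% ± 0.025 (SD, n = 3) to 2.99% ± 0.11 in siNtc. The share rose from 0.794% ± 0.009 to 3.08% ± 0.16 in siErk3 and from 0.730% ± 0.030 to 2.95% ± 0.17 in siMk5. All assigned read pairs include a ribosomal RNA, at 8.39% to 12.9% in siMk5 BSA and 2.56% to 7.17% in siNtc BSA. Shares are therefore not compared between silencing groups. The summed CPM was 7301 to 7848 in siMk5 BSA and 7315 to 7471 in siNtc BSA. With PA it was 28125 to 31064 in siMk5 and 29132 to 32094 in siNtc.

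**Figure D1:**
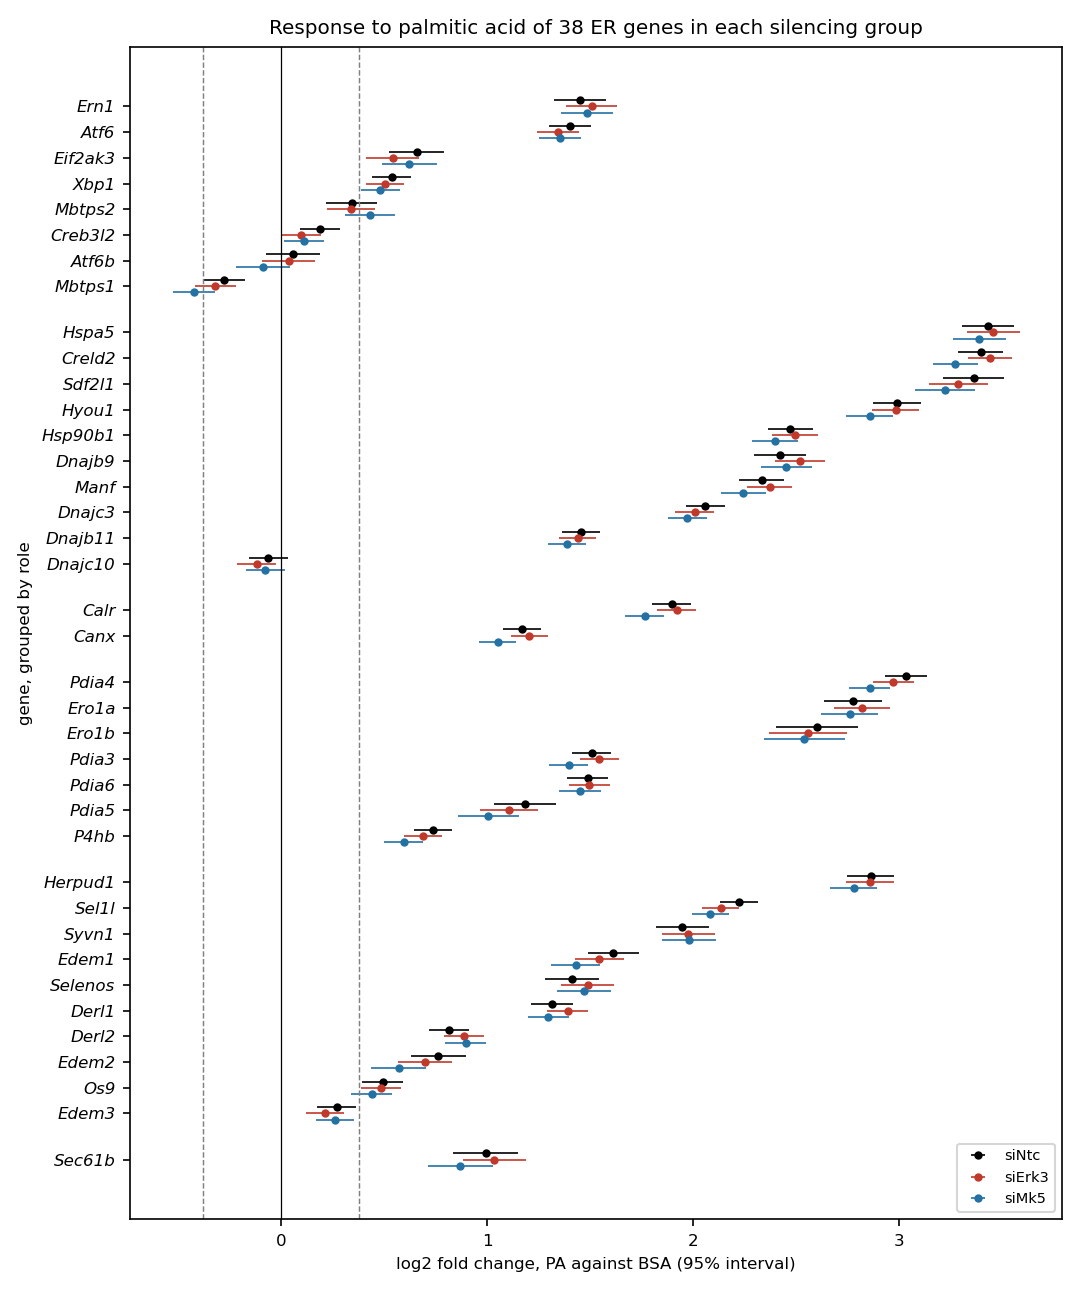
Log2 fold change of PA against BSA (x axis) for 38 genes (y axis, ordered by role and by size in siNtc), in siNtc (black), siErk3 (red) and siMk5 (blue), with 95% intervals; dashed lines mark a fold change of 1.3 in either direction and Derl3, with 54 counts in total, is left out. Hspa5, Creld2 and Sdf2l1 lie beyond 3 in every group, while Atf6b and Dnajc10 lie near 0.

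Among the sensors and their transcription factors, Ern1 and Atf6 rose more than Eif2ak3 and Xbp1. Ern1 was at 48.9, 50.4 and 50.4 CPM with BSA and 127, 137 and 146 CPM with PA in the siNtc libraries. In siErk3 it was at 50.03, 45.7 and 47.01 CPM with BSA and 148, 131 and 127 CPM with PA, and in siMk5 at 48.2, 47.2 and 51.1 CPM with BSA and 143, 139.6 and 127 CPM with PA. The PA libraries were all above the BSA libraries, with log2 fold changes of 1.45 ± 0.06, 1.51 ± 0.06 and 1.49 ± 0.06 (SE) in siNtc, siErk3 and siMk5. Atf6 measured 163, 157 and 159 CPM with BSA and 398, 429 and 437 CPM with PA in siNtc. For Atf6 the values were 164, 159.8 and 166 CPM with BSA and 444, 414 and 387 CPM with PA in siErk3 and 153, 157 and 163 CPM with BSA and 423, 399 and 389 CPM with PA in siMk5. Its log2 fold changes were 1.401 ± 0.05, 1.35 ± 0.05 and 1.35 ± 0.05, again with no overlap between the media.

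Eif2ak3, the gene of PERK, was at 30.4, 28.2 and 31.9 CPM with BSA and 44.7, 48.9 and 49.2 CPM with PA in siNtc. The values were 31.2, 29.9 and 32.1 CPM with BSA and 45.6, 47.6 and 42.3 CPM with PA in siErk3 and 29.2, 32.4 and 31.99 CPM with BSA and 51.4, 46.5 and 45.9 CPM with PA in siMk5. It rose in each group, by a log2 fold change of 0.66 ± 0.07, 0.54 ± 0.06 and 0.62 ± 0.06. Xbp1 had 130.4, 146 and 143 CPM with BSA and 198, 202 and 210.4 CPM with PA in siNtc. For Xbp1 the values were 142, 151 and 145 CPM with BSA and 208, 207 and 207 CPM with PA in siErk3 and 138, 149 and 146 CPM with BSA and 206, 201 and 197 CPM with PA in siMk5. Its log2 fold changes, 0.54 ± 0.05, 0.50 ± 0.05 and 0.48 ± 0.05, were among the smaller ones that passed. Counts per gene do not separate the cut from the uncut Xbp1 mRNA, so that only the total amount was measured.

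The proteases that release ATF6 showed small differences of opposite sign. Mbtps1, the site-1 protease, was at 157, 173 and 169 CPM with BSA and 143, 139 and 129 CPM with PA in siNtc. For Mbtps1 the values were 164, 169 and 168 CPM with BSA and 126, 138 and 138 CPM with PA in siErk3 and 162, 176 and 178 CPM with BSA and 129, 128 and 127 CPM with PA in siMk5. All PA libraries were below the BSA libraries of their group, but the fold change passed 1.3 in siMk5 and not in the other two (log2 -0.28 ± 0.05 in siNtc, -0.32 ± 0.05 in siErk3 and -0.42 ± 0.05 in siMk5). Mbtps2, the site-2 protease, was at 28.03, 26.2 and 28.4 CPM with BSA and 33.97, 34.5 and 36.2 CPM with PA in siNtc. For Mbtps2 the values were 26.3, 26.99 and 28.98 CPM with BSA and 35.7, 33.6 and 34.99 CPM with PA in siErk3 and 29.7, 26.8 and 28.01 CPM with BSA and 37.9, 37.97 and 38.1 CPM with PA in siMk5. It rose past the threshold in siMk5 (log2 0.43 ± 0.06) and had log2 fold changes of 0.34 ± 0.06 in siNtc and 0.34 ± 0.06 in siErk3, with an FDR below 0.05 by edgeR but a fold change under 1.3. The tests of the difference between silencing groups did not pass for either protease (interaction of siMk5 with PA, FDR 0.665 for Mbtps1 and 0.841 for Mbtps2, edgeR). Of the exonic bases of Mbtps2, 28.4% are shared with Yy2 on the same strand, and read pairs that overlap both genes were not assigned to either. Atf6b, a relative of ATF6, and Creb3l2, another membrane-bound transcription factor, did not pass in any group. Over the 18 libraries Atf6b ranged from 39.4 to 49.97 CPM and Creb3l2 from 128 to 160.1 CPM, and for Creb3l2 the PA libraries were above the BSA libraries in each group, with a log2 fold change of 0.19 ± 0.05 in siNtc.

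Of the 10 chaperones and partners, 9 rose in each silencing group and Dnajc10 did not pass, and among the 38 genes without Derl3 the largest log2 fold changes were those of Hspa5, Creld2 and Sdf2l1. Hspa5 encodes BiP, the Hsp70 of the ER that binds unfolded chains and holds the 3 sensors inactive, and in the GRCm39 annotation it spans chr2:34661982-34667559 on the plus strand. It was at 805, 775 and 774 CPM with BSA and 7758, 8558 and 9058 CPM with PA in siNtc. In siErk3 it was at 786, 795 and 809 CPM with BSA and 9496, 8821 and 7919.6 CPM with PA, and in siMk5 at 765, 771 and 787 CPM with BSA and 8733, 8019 and 7579.5 CPM with PA. PA raised it 10.8-fold in siNtc, 10.98-fold in siErk3 and 10.5-fold in siMk5 (log2 3.43 ± 0.06, 3.46 ± 0.06 and 3.39 ± 0.06, FDR 9.5e-28 in siNtc by edgeR). Hspa5 alone took 0.0820% ± 0.0051 (SD, n = 3) of all assigned read pairs in siNtc BSA and 0.820% ± 0.055 in siNtc PA. Hsp90b1, the Hsp90 of the ER known as GRP94, stood at 717, 662 and 674 CPM with BSA and 3583, 3799.5 and 4008 CPM with PA in siNtc. For Hsp90b1 the values were 662, 684 and 681 CPM with BSA and 4012, 3883 and 3539.6 CPM with PA in siErk3 and 661, 682 and 699 CPM with BSA and 3829, 3563 and 3358 CPM with PA in siMk5, with log2 fold changes of 2.47 ± 0.05, 2.495 ± 0.05 and 2.396 ± 0.05.

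Of the partners of BiP and other ER proteins listed with it, Hyou1, Sdf2l1, Creld2 and Manf rose in each silencing group. Hyou1, a large Hsp70 relative that exchanges the nucleotide of BiP, was at 184, 188 and 189.8 CPM with BSA and 1363, 1519 and 1577 CPM with PA in siNtc. For Hyou1 the values were 195, 197 and 199 CPM with BSA and 1640.1, 1581 and 1449.6 CPM with PA in siErk3 and 184, 197 and 197 CPM with BSA and 1483, 1369.5 and 1334 CPM with PA in siMk5. Its log2 fold changes were 2.99 ± 0.06, 2.98 ± 0.06 and 2.86 ± 0.06. Sdf2l1, which forms a complex with the J protein Dnajb11, was low with BSA, at 15.3, 19.3 and 20.4 CPM in siNtc, 19.3, 19.99 and 19.2 CPM in siErk3 and 17.3, 19.1 and 22.1 CPM in siMk5. With PA it reached 181, 196 and 197 CPM, 196, 192 and 183 CPM and 181, 187 and 175 CPM, respectively, a rise of 3.36 ± 0.07, 3.29 ± 0.07 and 3.22 ± 0.07 on the log2 scale. Creld2 and Manf are small ER proteins that can be secreted under stress, and they responded to unlike degrees. Creld2 was at 41.9, 47.6 and 44.5 CPM with BSA and 453, 476 and 489 CPM with PA in siNtc. For Creld2 the values were 43.98, 45.97 and 43.7 CPM with BSA and 483, 498 and 469 CPM with PA in siErk3 and 46.7, 44.9 and 45.4 CPM with BSA and 469.9, 426 and 428 CPM with PA in siMk5. It rose about as much as Hspa5, by 3.396 ± 0.05, 3.44 ± 0.05 and 3.27 ± 0.05 on the log2 scale. Manf was at 112, 117 and 119 CPM with BSA and 546, 586 and 620.04 CPM with PA in siNtc. For Manf the values were 107, 112 and 112 CPM with BSA and 595, 581 and 533 CPM with PA in siErk3 and 112, 118 and 119.8 CPM with BSA and 584, 539 and 536 CPM with PA in siMk5. It rose less than Creld2, by 2.33 ± 0.05, 2.37 ± 0.05 and 2.24 ± 0.05.

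The 4 J proteins, co-chaperones that bring clients to BiP, ranged from a strong rise to none that passed. Dnajb9 (ERdj4), which also acts on IRE1α, was at 38.8, 33.3 and 36.8 CPM with BSA and 187, 193 and 201 CPM with PA in siNtc. For Dnajb9 the values were 32.9, 35.1 and 31.3 CPM with BSA and 193, 191 and 184 CPM with PA in siErk3 and 39.9, 34.5 and 34.2 CPM with BSA and 209, 198 and 189 CPM with PA in siMk5. It rose most of the 4, by 2.42 ± 0.06 on the log2 scale in siNtc. Dnajc3 (p58IPK) was at 136, 127 and 130.04 CPM with BSA and 541, 545 and 549 CPM with PA in siNtc. For Dnajc3 the values were 129, 138 and 139 CPM with BSA and 551, 555 and 526 CPM with PA in siErk3 and 136, 130.4 and 142 CPM with BSA and 558, 525 and 516 CPM with PA in siMk5. The rise in siNtc was 2.06 ± 0.05, and no PA library overlapped a BSA library of its group. Dnajb11 (ERdj3), which holds the ERSE-II shown above within its transcribed sequence, was at 104, 104.8 and 108 CPM with BSA and 280.2, 298 and 291 CPM with PA in siNtc. For Dnajb11 the values were 102, 104.8 and 107 CPM with BSA and 292, 289.8 and 269 CPM with PA in siErk3 and 103, 105.2 and 104 CPM with BSA and 284, 267 and 266 CPM with PA in siMk5. It rose least of the 3, by 1.46 ± 0.04 in siNtc, again without overlap. Dnajc10 (ERdj5), a J protein with disulfide reductase activity, ranged from 157 to 188 CPM over the 18 libraries and did not pass in any group, with log2 fold changes of -0.06 ± 0.05, -0.12 ± 0.05 and -0.08 ± 0.05.

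**Figure D2:**
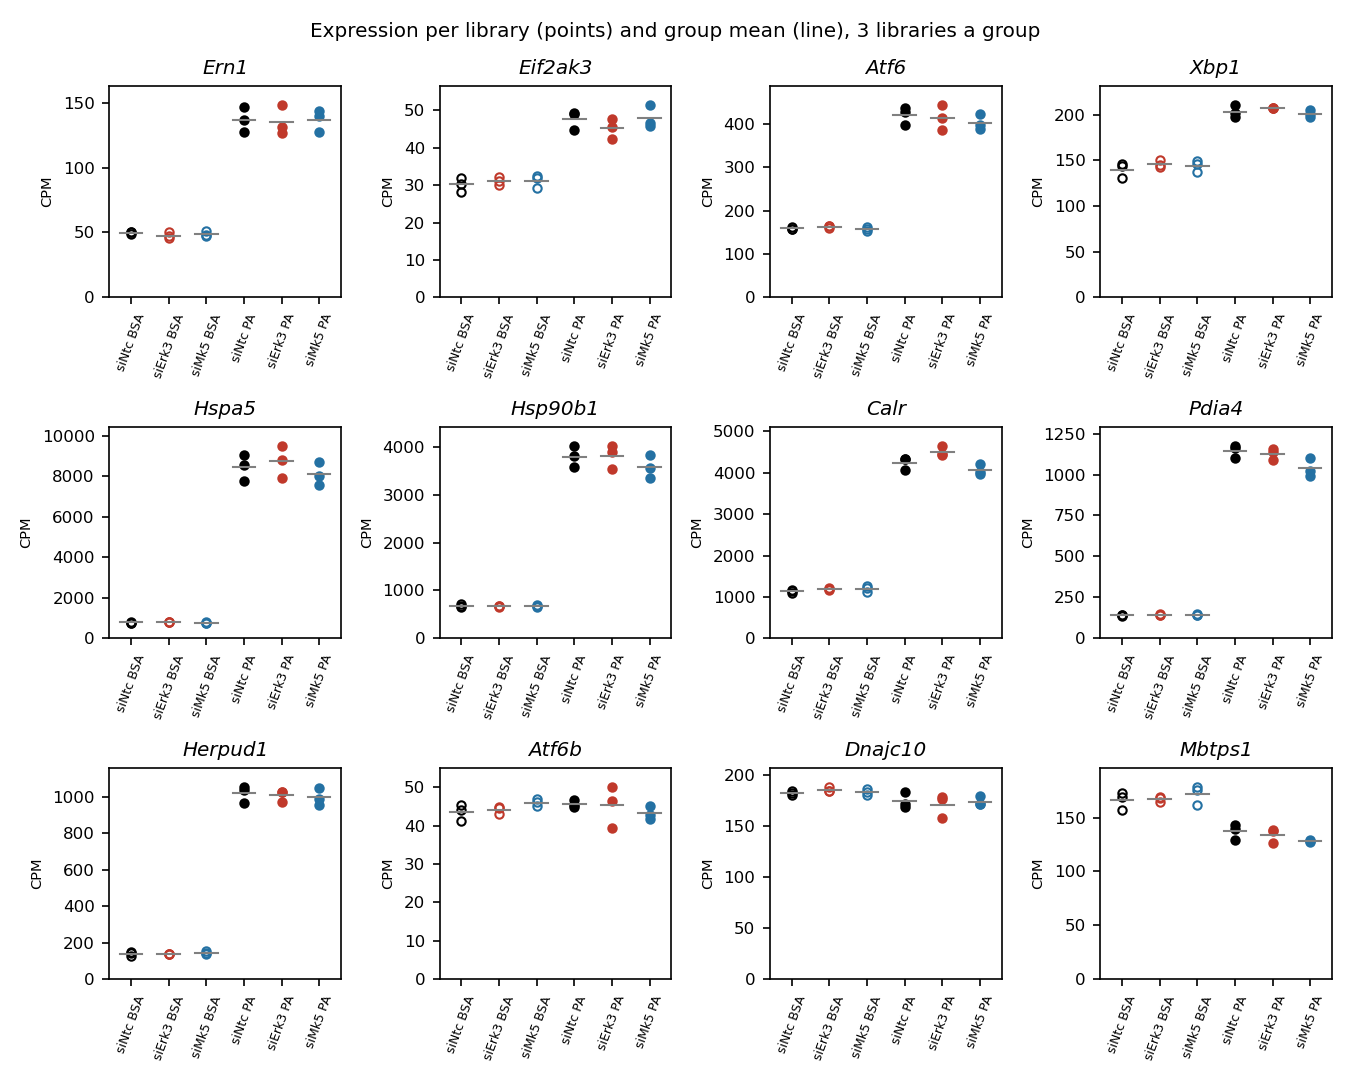
CPM per library (y axes, linear from 0) for 12 genes in the 6 groups (x axes); points are libraries, open for BSA and filled for PA, and grey lines are group means of 3 libraries. For Hspa5 the PA libraries lie at 7580 CPM or higher and the BSA libraries at 809 CPM or lower, while for Atf6b and Dnajc10 the 2 media lie at about the same height.

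Both lectin chaperones, which bind glycoproteins that still carry a terminal glucose, rose. Calr encodes calreticulin and Canx calnexin. Calr, the soluble form, was at 1104, 1142 and 1176 CPM with BSA and 4065, 4343 and 4324 CPM with PA in siNtc. For Calr the values were 1162, 1192 and 1225 CPM with BSA and 4439, 4642 and 4459 CPM with PA in siErk3 and 1114, 1217 and 1255 CPM with BSA and 4201, 4023 and 3969 CPM with PA in siMk5. Per kb of gene length Calr had the highest level of the 39 genes in siNtc BSA. Canx, the membrane form, was at 480.4, 452 and 464 CPM with BSA and 1029, 1037 and 1077 CPM with PA in siNtc. For Canx the values were 461, 472 and 482 CPM with BSA and 1140.0, 1101 and 1024 CPM with PA in siErk3 and 499, 478 and 505 CPM with BSA and 1045, 1039 and 986 CPM with PA in siMk5. The groups did not overlap between media, and the log2 fold changes in siNtc, siErk3 and siMk5 were 1.895 ± 0.05, 1.92 ± 0.05 and 1.77 ± 0.05 for Calr and 1.17 ± 0.04, 1.21 ± 0.04 and 1.05 ± 0.04 for Canx.

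All 7 disulfide isomerases and oxidases rose in each silencing group, from a log2 fold change in siNtc of 0.74 for P4hb to 3.03 for Pdia4. P4hb, the classical protein disulfide isomerase, was at 776, 833 and 841 CPM with BSA and 1358, 1372 and 1359.9 CPM with PA in siNtc. For P4hb the values were 856, 867 and 869.5 CPM with BSA and 1344, 1442 and 1398 CPM with PA in siErk3 and 805, 856 and 924 CPM with BSA and 1330.4, 1295 and 1277 CPM with PA in siMk5. Pdia4 (ERp72) was at 134, 142 and 144 CPM with BSA and 1099.8, 1173 and 1163 CPM with PA in siNtc. For Pdia4 the values were 148, 142 and 142 CPM with BSA and 1138, 1159 and 1087 CPM with PA in siErk3 and 140.2, 146 and 144 CPM with BSA and 1102, 1024 and 989.9 CPM with PA in siMk5. Per kb of gene length, P4hb and Pdia4 had mean levels of 286 and 58.3 CPM in siNtc BSA and of 476 and 477 CPM in siNtc PA, so that the smaller rise of P4hb started from a higher level. Pdia3 (ERp57), which works with the lectin chaperones, was at 487, 492 and 486 CPM with BSA and 1323, 1395 and 1445 CPM with PA in siNtc. For Pdia3 the values were 478, 505 and 504 CPM with BSA and 1485, 1475 and 1382 CPM with PA in siErk3 and 483, 503 and 522 CPM with BSA and 1385, 1320.4 and 1266 CPM with PA in siMk5. Again no PA library overlapped a BSA library of its group. Pdia6, which also acts on the sensors, was at 312, 304 and 312 CPM with BSA and 816, 875 and 912 CPM with PA in siNtc. For Pdia6 the values were 320.3, 324 and 328 CPM with BSA and 971, 922 and 849.9 CPM with PA in siErk3 and 302, 307 and 320.4 CPM with BSA and 883, 845 and 813 CPM with PA in siMk5. These 2 genes rose by nearly equal amounts, with log2 fold changes of 1.51 ± 0.05 and 1.49 ± 0.05 in siNtc. Pdia5 was at 20.2, 24.003 and 24.5 CPM with BSA and 50.8, 53.3 and 53.4 CPM with PA in siNtc. For Pdia5 the values were 22.8, 27.5 and 24.5 CPM with BSA and 54.1, 53.999 and 52.8 CPM with PA in siErk3 and 22.4, 24.5 and 27.4 CPM with BSA and 51.3, 50.3 and 47.3 CPM with PA in siMk5, with a log2 fold change of 1.18 ± 0.07 in siNtc.

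The ER oxidases, which reoxidize disulfide isomerases, both rose. Ero1a was at 28.1, 25.2 and 25.6 CPM with BSA and 169, 187 and 182 CPM with PA in siNtc. For Ero1a the values were 23.9, 27.9 and 27.05 CPM with BSA and 189, 188 and 179 CPM with PA in siErk3 and 28.6, 22.4 and 26.6 CPM with BSA and 182, 178 and 167 CPM with PA in siMk5. The values with PA were all above those with BSA. Ero1b, a paralog with a narrower tissue distribution, was at 5.48, 6.75 and 5.63 CPM with BSA and 33.7, 38.1 and 37.9 CPM with PA in siNtc. For Ero1b the values were 7.01, 5.61 and 6.01 CPM with BSA and 39.5, 36.6 and 33.3 CPM with PA in siErk3 and 5.36, 6.49 and 6.81 CPM with BSA and 38.1, 34.8 and 35.03 CPM with PA in siMk5. The log2 fold changes in siNtc, siErk3 and siMk5 were 2.78 ± 0.07, 2.82 ± 0.07 and 2.76 ± 0.07 for Ero1a and 2.599 ± 0.10, 2.56 ± 0.09 and 2.54 ± 0.10 for Ero1b.

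Of the 11 genes of ER-associated degradation, 10 rose in each silencing group, and Edem3 had an FDR below 0.05 by edgeR with a fold change under 1.3. Herpud1, a membrane protein that assembles the degradation complex, was at 126, 145 and 149 CPM with BSA and 966, 1039 and 1054 CPM with PA in siNtc. For Herpud1 the values were 139, 139 and 139 CPM with BSA and 1027, 1025 and 974 CPM with PA in siErk3 and 137, 147 and 153 CPM with BSA and 1052, 989.8 and 959 CPM with PA in siMk5. Its rise of 2.86 ± 0.06, 2.86 ± 0.06 and 2.78 ± 0.06 on the log2 scale was the largest among the 10 genes of the role other than Derl3, which had too few counts to be ranked. The ubiquitin ligase Syvn1 (Hrd1) and its partner Sel1l both rose. Syvn1 was at 63.8, 72.8 and 70.9 CPM with BSA and 247, 269 and 286 CPM with PA in siNtc. For Syvn1 the values were 66.8, 67.2 and 69.98 CPM with BSA and 289.7, 263 and 251 CPM with PA in siErk3 and 61.9, 65.1 and 69.4 CPM with BSA and 278, 249.99 and 246 CPM with PA in siMk5, and its log2 fold change in siNtc was 1.95 ± 0.06. Sel1l was at 136, 137 and 139 CPM with BSA and 619, 659.6 and 645 CPM with PA in siNtc. For Sel1l the values were 140.3, 144 and 146 CPM with BSA and 629.95, 641 and 617 CPM with PA in siErk3 and 138, 141 and 152 CPM with BSA and 631, 603 and 593 CPM with PA in siMk5, and its log2 fold change in siNtc was 2.22 ± 0.04.

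The 3 EDEM genes, related to mannosidases and acting on glycoproteins marked for degradation, were graded. Edem1 was at 59.6, 63.3 and 68.3 CPM with BSA and 183, 197 and 207 CPM with PA in siNtc. For Edem1 the values were 68.3, 71.9 and 65.7 CPM with BSA and 214, 197 and 189.9 CPM with PA in siErk3 and 65.02, 70.2 and 73.2 CPM with BSA and 195, 188 and 178 CPM with PA in siMk5. Edem1 is a known target of XBP1. Edem2 was at 23.8, 29.8 and 28.9 CPM with BSA and 48.1, 49.3 and 43.96 CPM with PA in siNtc. For Edem2 the values were 28.3, 29.5 and 28.9 CPM with BSA and 45.5, 48.3 and 46.8 CPM with PA in siErk3 and 30.4, 30.9 and 28.1 CPM with BSA and 43.9, 44.6 and 44.5 CPM with PA in siMk5. Edem3 ranged from 108 to 141 CPM over the 18 libraries, with all PA libraries above the BSA libraries of their group. The log2 fold changes in siNtc were 1.61 ± 0.06, 0.76 ± 0.07 and 0.27 ± 0.05, and their 95% intervals, 1.49 to 1.74, 0.63 to 0.90 and 0.18 to 0.36, did not overlap. Os9, a lectin of the same pathway, was at 101, 103 and 99.96 CPM with BSA and 148, 143 and 137 CPM with PA in siNtc. For Os9 the values were 101, 103 and 104.7 CPM with BSA and 137, 144 and 152 CPM with PA in siErk3 and 96.8, 101 and 110.05 CPM with BSA and 139.6, 137 and 141 CPM with PA in siMk5, with a log2 fold change of 0.49 ± 0.05 in siNtc.

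Derlins and Selenos belong to the membrane part of the pathway. Derl1 was at 137, 134 and 136 CPM with BSA and 324, 341 and 349 CPM with PA in siNtc. For Derl1 the values were 139, 131 and 134 CPM with BSA and 372, 352 and 336 CPM with PA in siErk3 and 135, 130.2 and 137 CPM with BSA and 354, 325 and 310.2 CPM with PA in siMk5. Derl1 forms a channel in the membrane for proteins on their way to the proteasome. Derl2, its paralog, was at 48.2, 46.4 and 47.9 CPM with BSA and 83.4, 82.04 and 85.1 CPM with PA in siNtc. For Derl2 the values were 43.1, 45.2 and 44.5 CPM with BSA and 81.5, 83.6 and 80.5 CPM with PA in siErk3 and 45.7, 43.2 and 47.1 CPM with BSA and 86.97, 83.9 and 81.9 CPM with PA in siMk5. The log2 fold change in siNtc was 1.32 ± 0.05 for Derl1 and 0.82 ± 0.05 for Derl2. Selenos, a selenoprotein that binds derlins, was at 52.3, 47.5 and 48.4 CPM with BSA and 123, 131 and 139 CPM with PA in siNtc. For Selenos the values were 48.3, 48.1 and 50.3 CPM with BSA and 148, 140.4 and 123 CPM with PA in siErk3 and 43.3, 46.4 and 49.5 CPM with BSA and 136, 128 and 121 CPM with PA in siMk5, with a log2 fold change of 1.41 ± 0.06. Derl3 was hardly detected, with 54 counts in all. It had 0, 0 and 3 counts in siNtc BSA, 0 in each siErk3 BSA library, and 0, 1 and 0 in siMk5 BSA. With PA it had 6, 5 and 6 counts in siNtc, 1, 12 and 6 in siErk3 and 5, 3 and 6 in siMk5. The ratio of the summed counts, scaled to the TMM-normalized library sizes, was 5.26 in siNtc (95% interval 1.52 to 28.03, counting error only) and 13.8 in siMk5 (2.10 to 584), and Derl3 was at least 6.76-fold higher in siErk3 against a limit of 3 counts over the BSA group. Derl3 is counted among the genes that rose in each group, but its call in siNtc (FDR 0.0414, edgeR) was lost by leaving out any single siNtc library other than BSA library 3, as well as in DESeq2.

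Sec61b, a subunit of the channel through which new chains enter the ER, was at 35.8, 49.3 and 50.5 CPM with BSA and 88.7, 90.8 and 93.6 CPM with PA in siNtc. The values were 49.01, 48.6 and 47.6 CPM with BSA and 102, 98.7 and 96.97 CPM with PA in siErk3 and 43.9, 52.6 and 54.5 CPM with BSA and 93.7, 92.7 and 89.1 CPM with PA in siMk5. It rose with PA in each group, with log2 fold changes of 0.99 ± 0.08, 1.04 ± 0.07 and 0.87 ± 0.08.

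Levels of different genes were compared as mean CPM per kb of the counted gene length. In siNtc BSA the order was led by Calr at 396 CPM per kb, P4hb at 286, Hspa5 at 186, Hsp90b1 at 169.8 and Pdia3 at 155. With PA Hspa5 came to the top at 1999.9 CPM per kb, before Calr at 1474, Hsp90b1 at 942, Pdia4 at 477 and P4hb at 476. Pdia4 and P4hb were neighbours in that order and overlapped between libraries. Creld2 moved from place 17 to 8 and Sdf2l1 from 24 to 12 of 39, while Dnajc10 moved from 13 to 25 without passing the test. The sensors stayed in the lower part, with Ern1 at 6.104 and 16.7, and Eif2ak3 at 5.01 and 7.901 CPM per kb with BSA and PA.

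**Figure D3:**
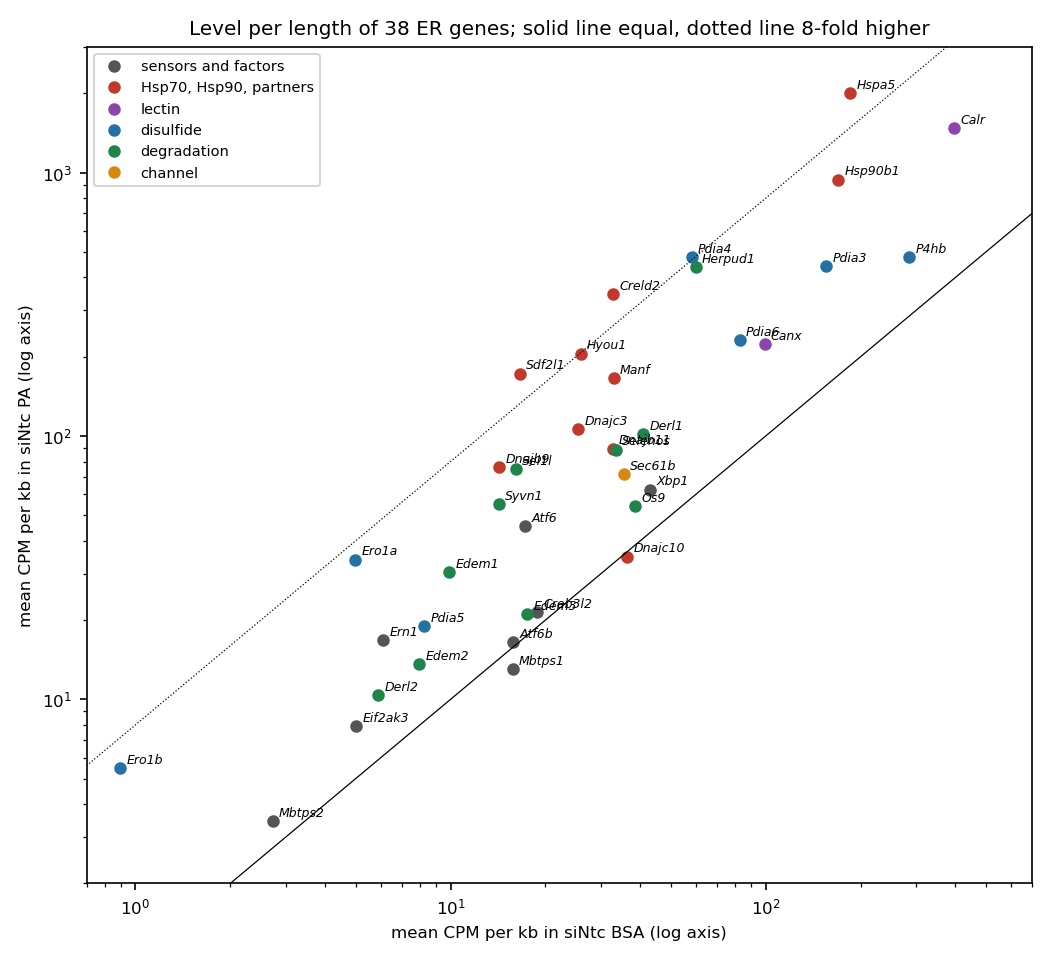
Mean CPM per kb of 38 genes in siNtc BSA (x axis) and siNtc PA (y axis), both on log axes, colored by role, 3 libraries a group; the solid line marks equal levels and the dotted line an 8-fold higher level with PA. Hspa5, Creld2, Sdf2l1 and, closest to it, Pdia4 lie above the dotted line, Mbtps1 and Dnajc10 lie below the solid line, and Atf6b lies close to it.

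In the PA groups most of the genes were lowest in the same library. Among the 38 genes with at least 50 counts in every library, siNtc PA library 1 was the lowest of its group for 30 genes, siErk3 PA library 3 for 28 and siMk5 PA library 3 for 32. Over 10740 genes with at least 50 counts in each library, these libraries were the lowest for 36.5%, 39.5% and 38.7%. In the BSA groups library 1 was the lowest for 21 of the 38 genes in siNtc, 23 in siErk3 and 27 in siMk5, against 49.9%, 45.5% and 47.6% of the 10740 genes, and the count in siNtc BSA is near that background. Genes of 1 library share its RNA and are not independent readings.

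Silencing of Erk3 or Mk5 was compared with siNtc in each medium. This asks whether silencing to the degree reached here shifted the level of ER stress genes or their response to PA. At the mRNA level Mapk6 was lowered but not removed, and the lower Mapkapk5 did not pass the test. The comparisons therefore do not show what full loss of either kinase would do. No gene of the list passed in any of these comparisons. With BSA 0 of 39 genes were called in siErk3 (0.785% of all genes) and 0 in siMk5 (0.0643%). With PA 0 were called in siErk3 (0.556%) and 0 in siMk5 (0.547%). At an unadjusted p below 0.05, edgeR gave 1 of 39 genes in siErk3 BSA (10.6% of all genes), 0 in siErk3 PA (8.28%), 0 in siMk5 BSA (6.89%) and 4 in siMk5 PA (6.79%). DESeq2 also called 0 in all 4 comparisons. With so few of all genes called, the absence of called members is near the background.

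The intervals show how large a difference could be at this degree of silencing. For 38 genes, all but Derl3, the log2 fold change of siErk3 against siNtc lay between -0.13 and 0.11 with BSA and between -0.07 and 0.12 with PA. That of siMk5 lay between -0.09 and 0.14 with BSA and between -0.14 and 0.12 with PA. The 95% intervals of all 38 genes stayed within a fold change of 1.3 in either direction in each of the 4 comparisons, the lowest bound being -0.26 for Dnajb9 in siErk3 BSA and the highest 0.30 for Sec61b in siMk5 BSA. For Hspa5 the log2 fold change was 0.02 (95% interval -0.10 to 0.14) in siErk3 BSA and 0.05 (-0.07 to 0.16) in siErk3 PA. In siMk5 it was -0.02 (-0.14 to 0.10) with BSA and -0.06 (-0.18 to 0.05) with PA. Derl3 was too low for such a statement.

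In siMk5 PA, 31 of the 38 genes had a log2 fold change below 0 against siNtc PA, as did 49.1% of all genes, and the median of their log2 fold changes was -0.04 where the median of all genes was 0.00. Pdia4 had the lowest FDR, with a log2 fold change of -0.14 ± 0.04 (FDR 0.238 by edgeR), and its libraries overlapped, the highest siMk5 PA value of 1102 CPM being above the lowest siNtc PA value of 1099.8 CPM. Reads of 18S ribosomal RNA took 1.71% to 6.69% of the counts in siMk5 PA, 5.32% to 6.43% in siNtc PA and 8.39% to 12.9% in siMk5 BSA, and without these and the mitochondrial counts the number of called members was 0 as well. Their part in the small differences was not tested.

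**Figure D4:**
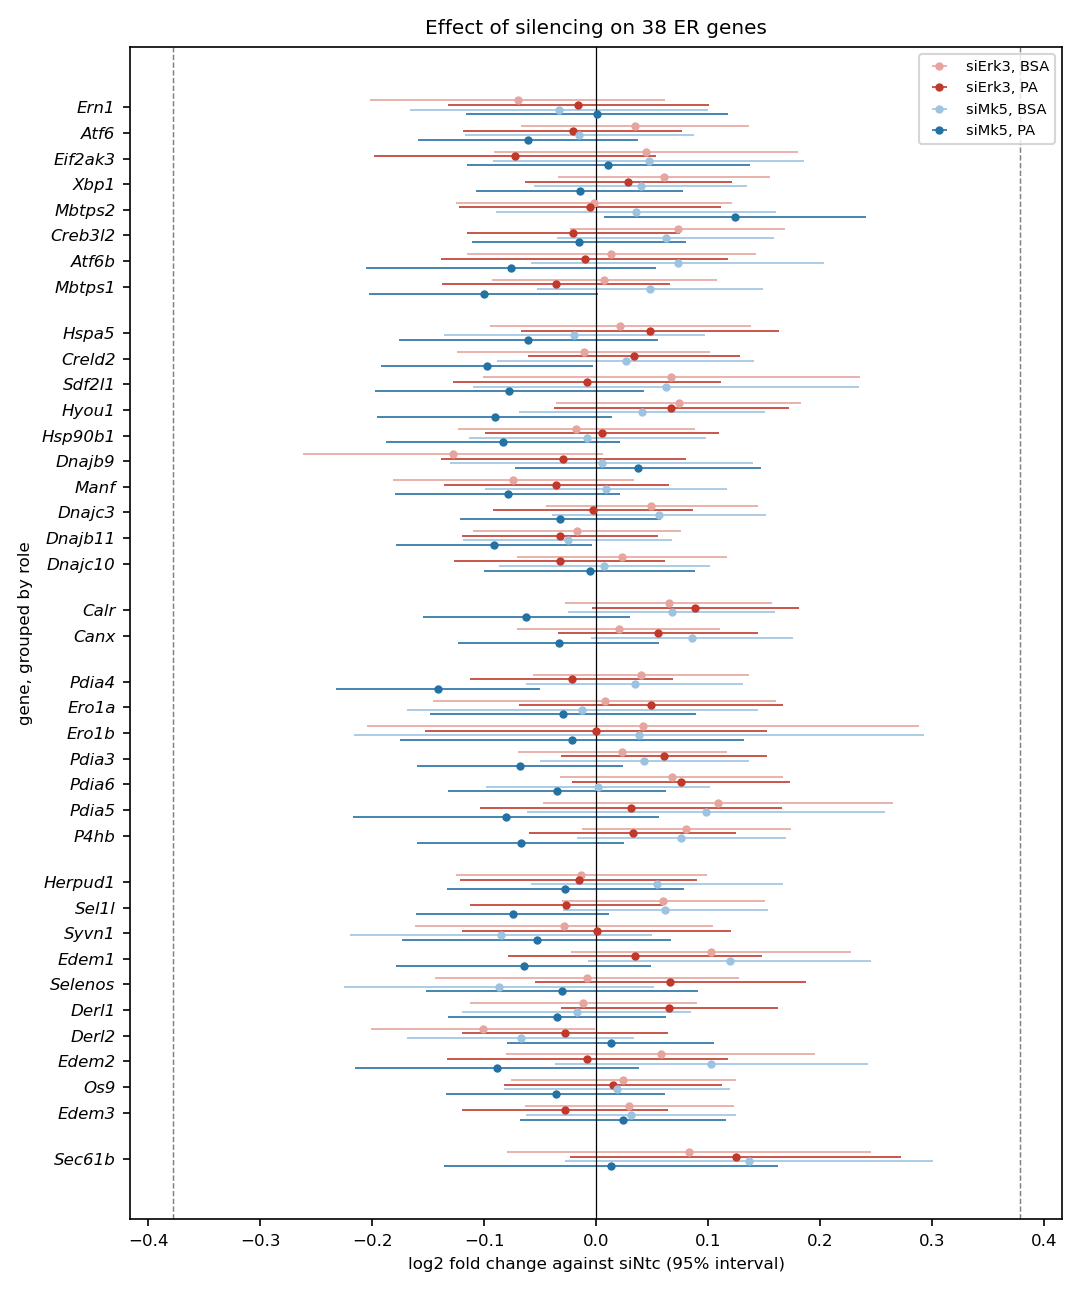
Log2 fold change against siNtc (x axis) for 38 genes (y axis, ordered as in the plot of the PA response), for siErk3 with BSA (light red) and PA (red) and for siMk5 with BSA (light blue) and PA (blue), with 95% intervals; dashed lines mark a fold change of 1.3. All intervals stay between the dashed lines, and none of the 4 comparisons has a called gene.

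The response to PA itself was compared between silencing groups by the interaction. For siErk3 0 of 39 genes passed (0.0367% of all genes) and for siMk5 0 (0.211%). At an unadjusted p below 0.05 there were 0 of 39 genes in siErk3 (6.1% of all genes) and 6 in siMk5 (7.43%) by edgeR, and DESeq2 called 0 in both. For 38 genes the difference of the log2 fold changes, siErk3 minus siNtc, lay between -0.12 and 0.10 with a median of -0.01. For siMk5 minus siNtc it lay between -0.19 and 0.09 with a median of -0.08, where the median of all genes was -0.02. The difference was below 0 for 22 of the 38 genes in siErk3 and 32 in siMk5, as for 55.9% and 53.9% of all genes. In siMk5 BSA against siNtc BSA, 28 of the 38 genes were above 0 and 10 below, where 45.5% of all genes were below 0. The 95% interval was within a fold change of 1.3 for all 38 genes in siErk3 and for 36 in siMk5. Both interactions share the siNtc libraries, so that they are not independent of each other.

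Other genes of the pathway, in lists of textbook members also chosen with earlier results of these data known, were read in the same fit. All 10 genes of the PERK and ATF4 output rose with PA in each silencing group, and the list median on the log2 scale was 2.90 in siNtc, 2.91 in siErk3 and 2.86 in siMk5. The share of all genes tested that rose was 15.5% in siNtc, 15.8% in siErk3 and 15.1% in siMk5. Trib3, a pseudokinase induced by CHOP, was at 4.29, 3.75 and 4.02 CPM with BSA and 121, 131 and 136 CPM with PA in siNtc, a log2 fold change of 5.02 ± 0.08. Ddit3 was at 10.5, 14.5 and 13.4 CPM with BSA and 227, 252 and 259 CPM with PA in siNtc (4.24 ± 0.08) and Atf4 at 216, 223 and 232 CPM with BSA and 616, 673 and 701 CPM with PA (1.57 ± 0.05). Atf3, another transcription factor of this branch, and Chac1, which degrades glutathione, rose by 4.78 ± 0.12 and 3.77 ± 0.09 on the log2 scale in siNtc. In siErk3 the log2 fold changes of Trib3, Ddit3 and Atf4 were 4.89, 4.31 and 1.62, and in siMk5 they were 5.09, 4.16 and 1.598.

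Genes for entry into the ER and for glycosylation rose by smaller amounts. Among all genes tested in siNtc, 15.5% rose and 15.1% fell. Of 24 genes for translocation and signal peptide removal, 18 rose and 1 fell in siNtc, and the list median on the log2 scale was 0.67. The largest rises were those of the signal peptidase subunit Spcs2 (1.33 ± 0.06), the signal recognition particle receptor subunit Srprb (1.29 ± 0.07), the channel subunit Sec61a1 (1.29 ± 0.05) and Spcs3 (1.08 ± 0.05). Tram2, a protein of the translocon that is known for its part in collagen synthesis, fell in each silencing group, with log2 fold changes of -0.59 ± 0.06, -0.76 ± 0.06 and -0.76 ± 0.06. Of 17 genes for N-glycosylation and glycan trimming, 12 rose and 0 fell in siNtc, with a median of 0.67, led by the oligosaccharyltransferase subunits Rpn1 (1.102 ± 0.05), Stt3b (1.01 ± 0.04), Magt1 (0.97 ± 0.05) and Ostc (0.92 ± 0.05).

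The remaining lists were mixed, where 15.5% of all genes tested rose and 15.1% fell in siNtc. Of 24 other genes of ER-associated degradation, 14 rose and 0 fell in siNtc, and the list median was 0.39. The largest rises were in Rhbdd1, a rhomboid protease (1.56 ± 0.06), Selenok (1.33 ± 0.06), Erlin1 (1.16 ± 0.06) and H13, the signal peptide peptidase (0.96 ± 0.05). Of 20 genes for export in COPII vesicles and cargo receptors, 11 rose and 0 fell, with a median of 0.41, led by Mcfd2 (1.24 ± 0.05), Sec23b (1.05 ± 0.05), Sec24a (1.02 ± 0.06) and Surf4 (0.99 ± 0.05). Of 28 other folding enzymes, 11 rose and 1, Selenom, fell (-0.46 ± 0.06), and the median was 0.13. Fkbp11 (2.504 ± 0.07), Txndc11 (0.96 ± 0.06) and Ppib (0.94 ± 0.05) rose most among those well detected, and Clgn, with 0 counts in siNtc BSA and 7 in siNtc PA, was at least 2.17-fold higher against 3 counts over the group, with the median the same at this bound. In siErk3 and siMk5 the numbers that rose were 18 and 18 for translocation, 12 and 11 for glycosylation, 12 and 11 for degradation, 10 and 9 for export and 11 and 8 for folding. Those that fell were 1 and 1, 1 and 1, 0 and 0, 0 and 0, and 2 and 3. Over all genes tested, 15.8% rose and 16.3% fell in siErk3, and 15.1% rose and 14.6% fell in siMk5. No gene of the 6 lists passed in a silencing comparison or an interaction. Only 0.0367% to 0.785% of all genes were called in these comparisons, so that this absence is near the background.

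**Figure D5:**
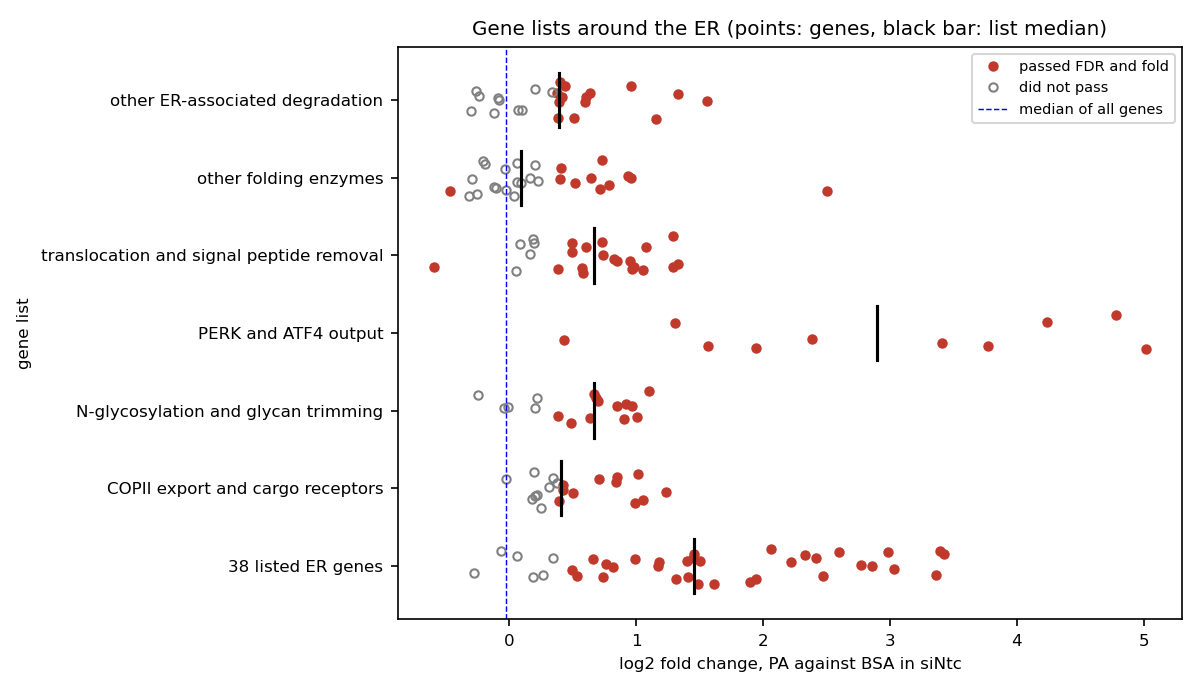
Log2 fold change of PA against BSA in siNtc (x axis) for the genes of 6 lists and for 38 genes of the main list (y axis), red where the gene passed the FDR and fold change and grey where it did not; black bars are list medians, the blue dashed line the median of all genes, and Clgn and Derl3 are left out. The PERK and ATF4 output lies farthest to the right, and 1 gene in each of 2 lists, Tram2 and Selenom, passed on the left.

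Promoters with an ERSE or ERSE-II were set beside the response to PA as a description. The 12 genes of the list with such an element had a median of 2.17 in siNtc on the log2 scale, from 1.17 for Canx to 3.43 for Hspa5. This median lies between Dnajc3 at 2.06 and Derl3 at 2.28, and Derl3 had too few counts to be ranked. The 23 matched genes without an element had a median of 0.82, from -0.28 for Mbtps1 to 3.36 for Sdf2l1. Outside the list, 37 genes of the genome hold an element, and 23 of them were tested. In siNtc 8 of the 23 rose, 4 fell and 11 did not pass, with a median of 0.29. Of all genes tested, 15.5% rose and 15.1% fell in siNtc.

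Markers of other cells and states were read beside these results. All 8 myotube markers were detected. Their sum was at 14440 to 14840 CPM in siNtc BSA and 11760 to 12160 CPM in siNtc PA. With PA 4 of 8 fell in siNtc and 2 of 8 in siErk3 and siMk5 each. Of all genes tested, 15.1% fell in siNtc, 16.3% in siErk3 and 14.6% in siMk5, and 15.5%, 15.8% and 15.1% rose. The 5 markers of undifferentiated or dividing myoblasts summed to 802 to 831 CPM in siNtc BSA and 366 to 436 CPM in siNtc PA, and 4 of 5 fell in each silencing group. Adipoq, Plin1 and Cidec of 4 adipocyte markers and Adgre1 and Ptprc of 4 macrophage markers had under 10 counts over all libraries, and the summed levels of the tested adipocyte, macrophage and endothelial markers stayed at or below 1.91 CPM in every library. Of 2 tested macrophage markers, 1 fell in siNtc and in siErk3 and 1 rose in siMk5, and of 3 endothelial markers 0, 1 and 1 rose in siNtc, siErk3 and siMk5, at these low levels. Of 5 genes of the fatty acid response, 4 rose with PA in each group. The part of the fall in myoblast markers in the rise of the ER genes was not tested.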

How the data were processed

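The count table deposited by the authors holds, for each gene and library, the number of read pairs assigned to its exons, with no scaling. Its header names featureCounts 2.0.0, Ensembl 105 and GRCm39, with reverse-strand counting, primary alignments only and mapping quality 3 or higher, whereas the submitters' processing notes name mm10. Per the study's methods, STAR aligned the trimmed reads and duplicates were marked, and the counting command in the file header has no option to drop them. Pairs touching exons of several genes on a strand were not assigned. A second deposited table, of log2 values, was not used, and 0 columns belonged to samples outside the series.

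Groups were taken from the sample labels. The 39 genes and all other lists were chosen with earlier results of these data known. Genes with 10 or more counts over the 18 libraries entered a quasi-likelihood fit in edgeR 4.0.16 (R 4.3.3) with TMM normalization and the 6 groups as coefficients. Passing required an FDR (Benjamini-Hochberg) under 0.05 together with a fold change over 1.3. The SE is the log2 fold change divided by the square root of the test statistic, and intervals are 95%. Depth limits mainly genes with few counts, such as Derl3 and Mapkapk5. By rule, values of every library are given for members passing in at least 1 comparison and for Ern1, Eif2ak3, Atf6, Xbp1 and Hspa5, and from each other list up to 4 genes with the largest change among those passing in siNtc, besides Ddit3, Atf4 and Trib3. Tram2 and Selenom were named after their values were seen. The test was first checked on simulated counts. Symbols follow GENCODE M39, gene coordinates the count table, and promoters RefSeq for GRCm38.p6, searched for exact letters. The alternatives were DESeq2 1.42.0, its size factors in edgeR, filterByExpr, no filter on low counts, the replicate number as a block, the compared groups alone, the FDR alone, counts without 18S and mitochondrial genes, and leaving out each library.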

Additional observations from a re-analysis of the deposited data

How the results depend on the processing

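The number of members called was 33 in siNtc, 33 in siErk3 and 35 in siMk5 for PA against BSA, and 0 in each silencing comparison and interaction. Over the alternatives it ranged from 32 to 37 in siNtc, 32 to 37 in siErk3 and 34 to 36 in siMk5, the highest values being those with the FDR alone, and it was 0 in the other comparisons under every alternative run. Leaving out each library in turn gave 32 to 33 in siNtc, 33 in siErk3 and 34 to 35 in siMk5. The replicate numbers showed no clear pairing of the libraries, though with 3 libraries a group this check cannot exclude one. The correlation of same-numbered deviations from the group means lay between -0.58 and 0.50. It exceeded 0.1 for every number in 0 of 15 pairs of groups. With the replicate block 33, 33 and 35 members were called. No call changed direction. Beside the FDR alone, which added 9 calls of Creb3l2, Mbtps1, Mbtps2, Dnajc10 and Edem3, the calls lost were all of Derl3, in siNtc in DESeq2 (log2 2.40) and without any library but siNtc BSA library 3 (1.59 to 2.36) and in siMk5 without siMk5 BSA library 1 or 3 (2.87 and 2.97), and filterByExpr left Derl3 out. Depth limits Derl3, Clgn and Mapkapk5, and counts per gene do not show Xbp1 splicing, protein amounts or the activity of the sensors.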
